A study of Vitis vinifera with 6 samples.

Results

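The genes described here lie in laccase gene blocks of grapevine (Vitis vinifera) chromosome 18. They comprise every array feature whose locus name starts with VIT_18s0117g (50 features) or VIT_18s0164g (17 features), together with LAC25 (VIT_18s0001g01280), which makes 68 of the 34369 features on the array. The blocks were taken whole by locus name, so they hold genes of other families. LAC25 was added as a single locus, and the study had already reported it as higher in the NAC61-overexpressing plants. Laccase names came from the study's supplementary tables, which in the main name features that were above background on most arrays, and they name 9 members as laccases: LAC41, LAC40, LAC39, LAC38 and LAC46 of the VIT_18s0117g block, LAC74, LAC73 and the unnumbered VIT_18s0164g00080 of the VIT_18s0164g block, and LAC25. A further 7 members had another annotation in the tables as read here, and the other members appear under their locus names. A locus without a name here may therefore also encode a laccase.

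Leaf RNA of cv. Thompson Seedless was measured on single-colour 60-mer arrays in 3 control (CTRL) and 3 NAC61-overexpressing (OX.NAC61) plants. Plantlets grown in vitro (6 weeks old per the labels) were vacuum infiltrated with Agrobacterium tumefaciens strain C58C1 carrying the pK7WG2 vector, with the coding sequence of the transcription factor gene NAC61 behind the constitutive 35S promoter in OX.NAC61 and a non-coding sequence in CTRL. Both groups had thus been through infiltration with bacteria and had received a vector, and young leaves were taken 7 days later. The OX.NAC61 plants were the 3 with the highest NAC61 expression, per the study's methods, and the expression was transient, so that a leaf sample can mix transformed and untransformed cells. The comparison asks which loci of the blocks change their transcript level when NAC61 is overexpressed.

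Laccases are multicopper oxidases that take electrons from phenolic compounds and pass them to oxygen. In plants they are secreted and are best known for oxidising monolignols, the alcohol building blocks of lignin, in the cell wall, and in grapevine they have also been proposed to couple stilbenes such as resveratrol into oligomers, the viniferins. Plant genomes carry many laccase genes, often as neighbouring copies.

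A level is given as the log2 of the processed signal minus the log2 of the 75th percentile of its array, so that 0 is the 75th percentile. A change is the OX.NAC61 mean minus the CTRL mean on that scale, and levels were compared between arrays but not between probes. The 75th percentile lay between 889 and 1613 on the CTRL arrays and between 1772 and 2569 on the OX.NAC61 arrays before scaling, and 24501 to 28121 features were well above background. NAC61 itself had levels of -2.48, -2.21 and -2.44 in CTRL and -1.15, -0.66 and -0.47 in OX.NAC61 (change 1.62, limma adjusted p = 0.0285). The 8 leaf photosynthesis genes used as tissue markers were well above background on all 6 arrays, and 7 of them were called lower in OX.NAC61. In whole leaves, fewer cells of a type and less RNA per cell cannot be told apart.

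Most of the 68 members were expressed in leaves of both groups. The spot was well above background on all 6 arrays for 45 members (66.2%, against 70% of all features on the array) and on no array for 13 members (19.1%, against 15.3%). Only VIT_18s0117g00430 was detected on all 3 OX.NAC61 arrays and on no CTRL array, a pattern found for 1.05% of the array. A further 4 members (5.88%, against 5.01% of the array) were detected on at least 2 OX.NAC61 arrays and at most 1 CTRL array. Another 5 had other patterns (7.35%, against 8.59%). No member carried an outlier or saturation flag.

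Of the 51 members bright enough to be tested, 6 were called higher in OX.NAC61, that is, with an adjusted p below 0.1 and more than 1.5-fold, and across the whole array 3.09% of features tested were called higher. All 6 are annotated laccases: the 5 of the VIT_18s0117g block and LAC25. A further member, VIT_18s0164g00030, was called lower, against 3.72% of features across the array, where 6.81% were called in either direction. Another 44 members were not called and 17 were too dim for the test. The levels in OX.NAC61 lay all above those in CTRL for 12 tested members (9.9% across the array) and all below for 3 (16.3% across the array). The 12 include VIT_18s0117g00430 and VIT_18s0164g00170, which passed the detection filter through their OX.NAC61 arrays, so their separation is no independent result. The median change was 0.05 over the tested members, 3.25 over the 8 tested laccases and -0.01 over the other 43, beside -0.05 over all features tested.

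The 2 largest changes of the blocks were those of LAC38 (VIT_18s0117g00590) and LAC39 (VIT_18s0117g00550). LAC38 had levels of -3.58, -5.36 and -4.64 in CTRL and 1.82, 1.03 and 1.42 in OX.NAC61. The groups were far apart, with the lowest OX.NAC61 array 4.61 above the highest CTRL array. The CTRL mean of -4.53 ± 0.89 (SD, n = 3) stood against an OX.NAC61 mean of 1.42 ± 0.40 (SD, n = 3), a change of 5.95 (SE 0.46, 61.9-fold, limma adjusted p = 0.0142). LAC39 had levels of -4.07, -5.35 and -4.49 in CTRL and 1.502, 0.72 and 1.07 in OX.NAC61. Here too no OX.NAC61 array came near a CTRL array. Its change of 5.73 (SE 0.37) was 53.2-fold (limma adjusted p = 0.014). Before scaling, the LAC38 spot went from 32.4 to 135 in CTRL to 5231 to 6274 in OX.NAC61, and the LAC39 spot from 32.5 to 96.2 to between 4232 and 5020. Both genes were thus dim in control leaves and brighter than the 75th percentile of the array in every OX.NAC61 leaf.

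LAC40, LAC41 and LAC46, the other laccases of the same stretch, were higher by smaller amounts. LAC40 (VIT_18s0117g00480) had levels of -2.94, -3.81 and -2.65 in CTRL and 0.88, -0.14 and 0.42 in OX.NAC61 (change 3.52, SE 0.38, 11.5-fold, limma adjusted p = 0.0241). LAC41 (VIT_18s0117g00450) had -2.47, -2.94 and -2.32 in CTRL and 1.08, -0.26 and 0.41 in OX.NAC61 (change 2.99, SE 0.36, 7.92-fold, limma adjusted p = 0.0284). LAC46 (VIT_18s0117g00600) had -3.62, -4.30 and -3.24 in CTRL and -0.23, -1.29 and -0.84 in OX.NAC61 (change 2.93, SE 0.36, 7.63-fold, limma adjusted p = 0.0284). In each of the 3 genes the groups were clear of each other, by 2.51, 2.06 and 1.95 between the nearest arrays, in that order.

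LAC25, the laccase that the study examined by name, lies outside both blocks. Its levels were -5.17, -5.34 and -4.65 in CTRL and -0.19, -1.68 and -0.56 in OX.NAC61. All OX.NAC61 arrays were above all CTRL arrays, with replicate 2 the lowest of the former. The mean was -5.06 ± 0.36 (SD, n = 3) in CTRL and -0.81 ± 0.78 (SD, n = 3) in OX.NAC61, and the change was 4.25 (SE 0.41, 95% interval 3.26 to 5.23, 19.0-fold, limma adjusted p = 0.0202). In the log2 values that the authors deposited the LAC25 change was smaller, 2.31, and still called (limma adjusted p = 0.0297), and those of the 5 block laccases were 1.69 to 4.15.

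**Figure D1:**
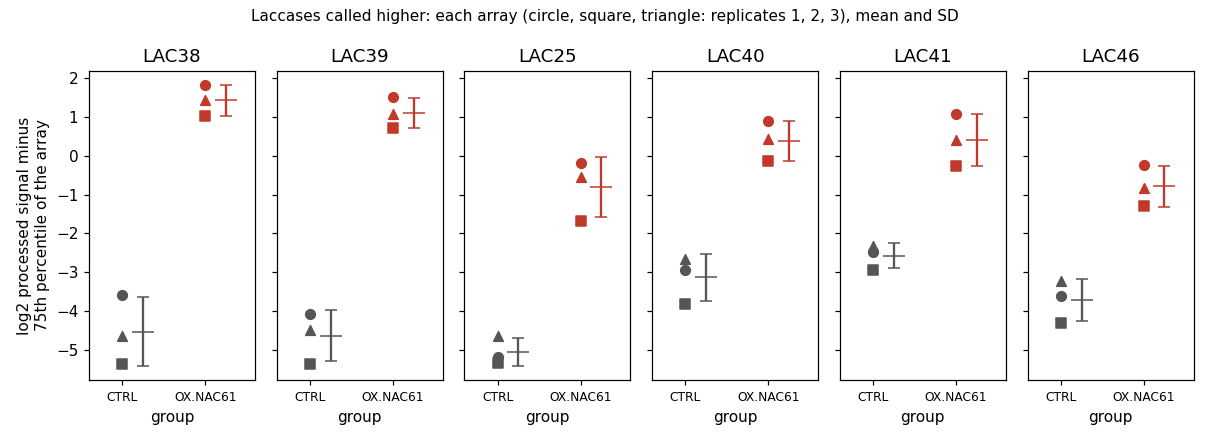
Level (log2 processed signal minus the 75th percentile of the array, y axis) of the 6 laccases called higher, by group (x axis), with each array as a point and the mean with its SD (n = 3) beside the points. In every panel the 3 OX.NAC61 points lie above the 3 CTRL points, with OX.NAC61 replicate 1 highest and replicate 2 lowest.

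None of the 6 called laccases started from a dark spot. Their signals were well above background on all 3 CTRL arrays, at 32.4 to 291 before scaling, and reached 800 to 6274 on the OX.NAC61 arrays. The dimmest was the LAC38 spot on CTRL replicate 2, which lay 1.26 (log2) above the faintest spot counted as well above background on that array. The arrays kept a similar order in these genes: OX.NAC61 replicate 1 was the highest and replicate 2 the lowest OX.NAC61 array in all 6, and CTRL replicate 2 was the lowest CTRL array in all 6. NAC61 itself had another order, with OX.NAC61 replicate 1 the lowest of that group (-1.15, beside -0.66 and -0.47).

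The scans were made on 2 days, the first of which held the 3 CTRL arrays with replicate 1 of OX.NAC61, and the second replicates 2 and 3 of OX.NAC61 with no control. Within the first day, OX.NAC61 replicate 1 minus the CTRL mean was 6.35 for LAC38, 6.14 for LAC39, 4.87 for LAC25, 4.01 for LAC40, 3.66 for LAC41 and 3.48 for LAC46, larger in each case than the change over all arrays. Replicates 2 and 3 minus the CTRL mean gave 5.75, 5.53, 3.94, 3.27, 2.65 and 2.66 in the same order of genes. With scan day as a block, which leaves a single OX.NAC61 array beside the controls, LAC39 alone remained called (limma adjusted p = 0.0964), and the other 5 had adjusted p-values of 0.109 to 0.136. Without CTRL replicate 2, LAC38, LAC39 and LAC40 remained called, while LAC25 (limma adjusted p = 0.103), LAC46 (0.113) and LAC41 (0.125) no longer passed. That setting called 71 features on the whole array, beside 1843 with all arrays. The changes of LAC25, LAC46 and LAC41 were then 4.10, 2.64 and 2.81. With normexp background correction in place of the processed signal, the 6 changes were 1.30 to 3.99 and none passed (limma adjusted p = 0.257 to 0.262).

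Along the VIT_18s0117g block the response lay at one end. The 37 features with locus numbers below that of LAC41 held 29 tested loci, of which 0 were called by limma, with a median change of -0.01. Of these, 5 had an unadjusted limma p below 0.05 (3 higher and 2 lower), beside 5513 of 27052 features across the array. Among the 3 higher, VIT_18s0117g00270 and VIT_18s0117g00430 passed the detection filter through their OX.NAC61 arrays. The changes lay between -0.64 and 1.93, the latter that of VIT_18s0117g00270 and not exact. The stretch from LAC41 to LAC46 held 12 features. In order of locus number the laccases changed by 2.99 (LAC41), 3.52 (LAC40), 5.73 (LAC39), 5.95 (LAC38) and 2.93 (LAC46). The change was thus larger at LAC39 and LAC38 than at the other laccases of the stretch. LAC39 and LAC38 differed by only 0.22 and LAC41 and LAC46 by 0.05, and neither difference was resolved. The single feature after LAC46, VIT_18s0117g00620, had a change of -0.18 (limma adjusted p = 0.668).

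**Figure D2:**
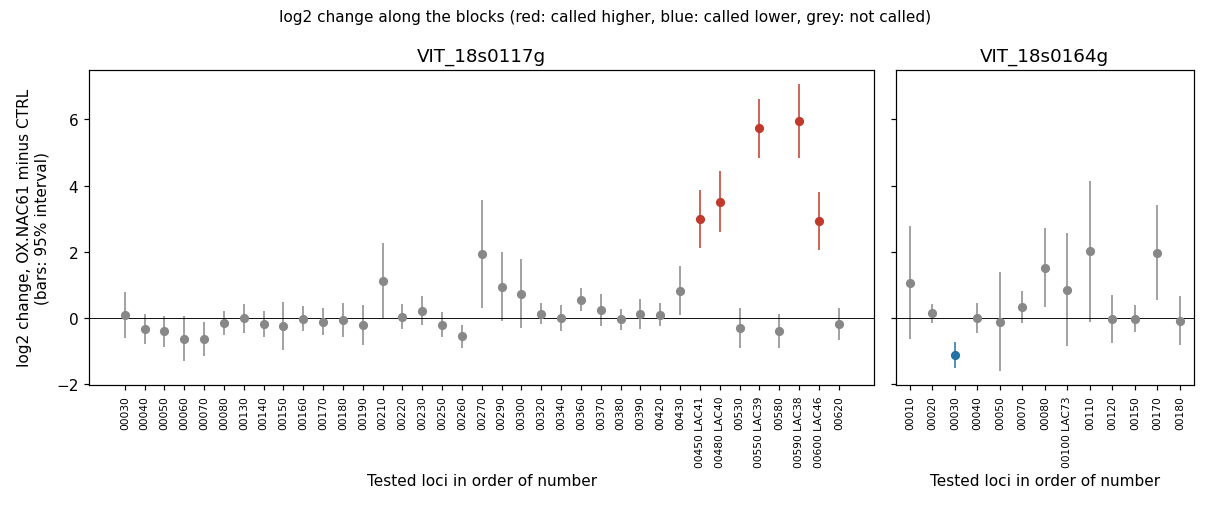
Change in level (log2, OX.NAC61 minus CTRL, y axis) of each tested locus in order of locus number (x axis), with the 95% interval as a bar, for VIT_18s0117g on the left and VIT_18s0164g on the right. Red points were called higher, blue lower and grey not called (grey points of loci below background on some CTRL arrays are not exact), and the 5 red points, all laccases at the right-hand end of the left panel, lie between 2.93 and 5.95.

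None of the 7 features that lie between LAC41 and LAC46 without a laccase name was called. VIT_18s0117g00470, VIT_18s0117g00490, VIT_18s0117g00500 and VIT_18s0117g00570 were below the detection limit on all 6 arrays. VIT_18s0117g00460 was detected on 1 OX.NAC61 array. VIT_18s0117g00530, between LAC40 and LAC39, was well above background throughout, with levels of -2.21, -1.78 and -2.34 in CTRL and -1.998, -2.50 and -2.75 in OX.NAC61 (change -0.31, limma adjusted p = 0.55). VIT_18s0117g00580, directly before LAC38 in locus number, had -2.54, -2.08 and -2.24 in CTRL and -2.52, -3.02 and -2.50 in OX.NAC61 (change -0.39, limma adjusted p = 0.357). The groups overlapped in both, so the called laccases stood interspersed with detected loci that were not called.

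The size of the change was compared between the 6 called laccases in 15 pairs by an exact two-sided permutation test of the difference of the levels over the 6 arrays, in which the smallest possible p is 0.1. In 12 pairs the differences did not overlap between the groups, each at that smallest p (0.125 after Benjamini-Hochberg adjustment). The other pairs were neighbours in the order of change. LAC38 and LAC39 differed by 0.22 (exact permutation p = 0.4), LAC25 and LAC40 by 0.73 (exact permutation p = 0.2), and LAC41 and LAC46 by 0.05 (exact permutation p = 0.8). On the scaled processed signal the order was thus LAC38 and LAC39 without a resolved difference, LAC25 and LAC40 likewise, and LAC41 and LAC46 likewise. LAC40 lay above LAC41 by 0.53. No pair passed 0.05 in the permutation test, which the design could not reach. The place of LAC25 depended on the processing. In the deposited log2 values LAC25 changed by 2.31, less than LAC40 (2.50) and LAC41 (2.34). Under normexp it changed by 1.94, less than LAC40 (2.22) and LAC41 (2.10).

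LAC38 and LAC46 are neighbouring loci that the study's tables pair with the same newer gene model, Vitvi18g03067, and their 2 probes nevertheless differed in change by 3.02 (exact permutation p = 0.1), with levels that separated the groups in both. Close laccase copies may share signal on a probe, and this was not examined here because the probe sequences were not used.

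**Figure D3:**
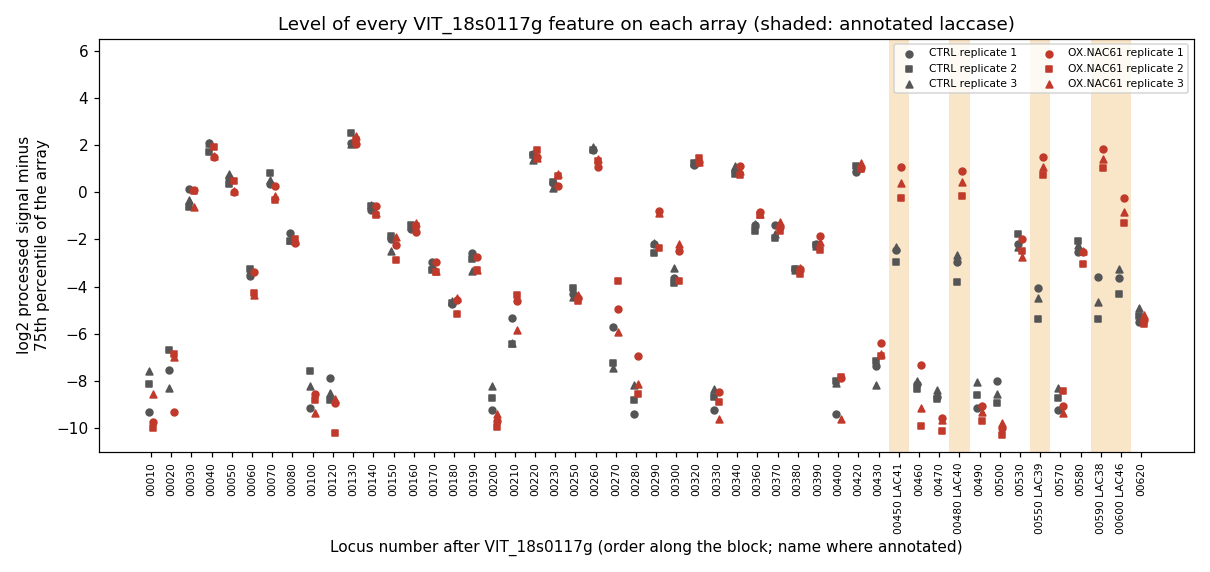
Level on each array (log2 processed signal minus the 75th percentile, y axis) of the 50 VIT_18s0117g features in order of locus number (x axis), CTRL in grey and OX.NAC61 in red, with the annotated laccases shaded. Grey and red points lie close over most of the block and are widest apart at the 5 laccases. Smaller separations occur elsewhere in either direction, as at VIT_18s0117g00070, VIT_18s0117g00260 and VIT_18s0117g00360. The features near the bottom include the 9 that were dark on all arrays.

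The dark loci were 9 features of the VIT_18s0117g block and 4 of the VIT_18s0164g block, among them LAC74. Their processed signals lay between 1.73 and 8.501, with a median of 2.91, beside the 8.57 to 13.5 of the faintest spots counted as well above background on each array. LAC74 (VIT_18s0164g00090), annotated as a diphenol oxidase, had signals of 2.77, 3.66 and 3.21 in CTRL and 2.31, 2.70 and 3.18 in OX.NAC61. These values give a limit and no level, and whether LAC74 is transcribed below it was not detectable on these arrays. After scaling, such spots fall lower on OX.NAC61 arrays because those arrays had the higher 75th percentiles, so no direction was read from them.

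The members detected mainly on OX.NAC61 arrays were dim in both groups. The OX.NAC61 arrays were also the brighter arrays, and the part of brightness in these detections was not tested. VIT_18s0117g00430, the locus directly before LAC41, had signals of 9.76, 9.44 and 3.08 in CTRL and 21.2, 20.8 and 18.8 in OX.NAC61, and it was not called. Because all CTRL spots were below background, the level in that group is only a bound, and it was too close to the OX.NAC61 level for a fold to be given. The 4 others, VIT_18s0117g00020, VIT_18s0117g00210, VIT_18s0117g00270 and VIT_18s0164g00170, had 0 to 1 CTRL arrays and 2 to 3 OX.NAC61 arrays above background, and none was called. Of these VIT_18s0117g00270 had levels of -5.69, -7.26 and -7.47 in CTRL and -4.93, -3.75 and -5.94 in OX.NAC61 (change 1.93, SE 0.68, limma adjusted p = 0.185), with the lowest OX.NAC61 array below the highest CTRL array. Only 1 of its CTRL spots was above background, so the change is not exact.

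Among the 32 tested VIT_18s0117g loci without a laccase name, which include a TCP14 transcription factor gene, a pentatricopeptide repeat gene and a deoxynucleoside kinase gene, 0 were called by limma in either direction. The 3 higher and 2 lower at an unadjusted p below 0.05 were those counted above among the loci before LAC41. The changes of the TCP14, pentatricopeptide repeat and deoxynucleoside kinase genes lay between -0.01 and 0.05. VIT_18s0117g00360 (0.55, limma adjusted p = 0.101) and VIT_18s0117g00260 (-0.55, limma adjusted p = 0.104) came nearest to the threshold on adjusted p, and both were below 1.5-fold. VIT_18s0117g00290 (change 0.95, limma adjusted p = 0.281) had -2.21, -2.55 and -2.14 in CTRL and -0.81, -2.36 and -0.86 in OX.NAC61. Its OX.NAC61 replicate 2 lay with the controls, and without that array it was called (change 1.46, limma adjusted p = 0.0556). These loci were singled out after their values were seen.

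The VIT_18s0164g block held 3 annotated laccases, and with all arrays and no block none was called by limma (1 of the 2 tested had an unadjusted p below 0.05). VIT_18s0164g00080 had levels of -4.88, -6.00 and -6.48 in CTRL and -4.81, -3.51 and -4.45 in OX.NAC61. The groups just cleared each other, by 0.07, and the change was 1.53 (SE 0.50, 95% interval 0.32 to 2.73, limma adjusted p = 0.162), with 1 of the CTRL spots below background. This value moved with the processing, to 0.28 in the deposited log2 values (limma adjusted p = 0.314), to -0.97 under normexp (0.457) and to 2.12 with the recorded slide as a block, where it was called (0.0629). CTRL replicate 1 was alone on its recorded slide, so that block takes it out of the comparison. Without that array and with no block the change was 1.98 (limma adjusted p = 0.104). LAC73 (VIT_18s0164g00100) had levels of -3.59, -5.14 and -5.35 in CTRL and -5.01, -2.65 and -3.87 in OX.NAC61. Its groups overlapped, with OX.NAC61 replicate 1 below CTRL replicate 1, and the change of 0.85 had a 95% interval from -0.85 to 2.56 (limma adjusted p = 0.555). The interval leaves room for a change of several fold, so an effect on LAC73 was not resolved, and with scan day as a block the change took the opposite sign (-0.31, limma adjusted p = 0.941).

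**Figure D4:**
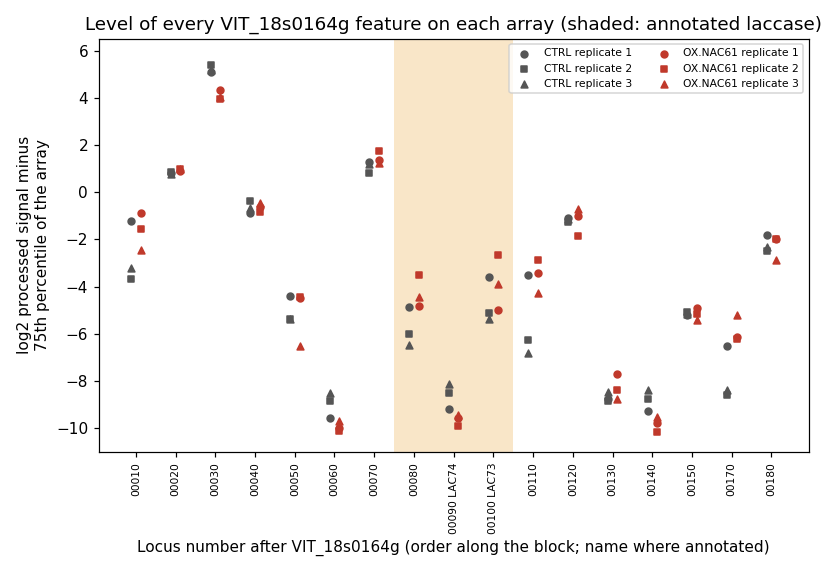
Level on each array (log2 processed signal minus the 75th percentile, y axis) of the 17 VIT_18s0164g features in order of locus number (x axis), CTRL in grey and OX.NAC61 in red, with the 3 annotated laccases shaded. CTRL replicate 1 lies well above the other controls at VIT_18s0164g00010, VIT_18s0164g00110 and VIT_18s0164g00170, and the red points of VIT_18s0164g00030 lie below its grey ones.

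CTRL replicate 1 lay above the other controls at several dim loci, in this block and elsewhere. It exceeded the mean of the other 2 controls by 1.36 at VIT_18s0164g00080, 1.65 at LAC73, 2.20 at VIT_18s0164g00010, 3.03 at VIT_18s0164g00110 and 1.98 at VIT_18s0164g00170. At other loci of the block, such as VIT_18s0164g00020, it differed by as little as 0.02. Outside the block it was likewise the highest control at VIT_18s0117g00270 and at VIT_18s0001g01290 (-6.29 beside -8.84 and -8.44). VIT_18s0164g00110, next to LAC73, had levels of -3.52, -6.28 and -6.83 in CTRL and -3.43, -2.87 and -4.28 in OX.NAC61 (change 2.02, SE 0.88, limma adjusted p = 0.267). VIT_18s0164g00170 had -6.51, -8.61 and -8.37 in CTRL and -6.15, -6.20 and -5.20 in OX.NAC61 (limma adjusted p = 0.14), with CTRL replicate 1 its only control spot above background. Neither was called with all arrays. Without CTRL replicate 1 both passed the threshold (limma adjusted p = 0.0596 and 0.0523). The 2 CTRL spots of VIT_18s0164g00170 that then remain were below background, with signals of 3.41 and 2.68, so no size is given for it. At VIT_18s0164g00110 the change was 3.03 without that array, with CTRL replicate 3 below background at a signal of 7.80. They were singled out after their values were seen.

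The only member lower in OX.NAC61 was not a laccase. VIT_18s0164g00030 encodes the delta chain of the chloroplast ATP synthase, a subunit of the enzyme that makes ATP in the light. Its levels were 5.12, 5.40 and 5.19 in CTRL and 4.34, 3.96 and 4.05 in OX.NAC61. All OX.NAC61 arrays were below all CTRL arrays, and the change was -1.12 (SE 0.17, limma adjusted p = 0.0338). The unscaled signals overlapped, with 32341 on CTRL replicate 3 beside 35996 to 39964 in OX.NAC61, so the separation appeared only after scaling. The call was lost without CTRL replicate 2 (limma adjusted p = 0.156), CTRL replicate 3 (0.114) or OX.NAC61 replicate 3 (0.113), and with scan day (0.269) or the recorded slide (0.119) as a block. The leaf photosynthesis markers fell in the same comparison for 7 of 8 genes, and their part in the result was not tested.

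The other laccases annotated in the study's tables, some under symbols starting with MCO-Like, give the frame for the blocks. As those tables in the main name detected features, undetected laccases may be missing from the counts. Outside the blocks 52 laccases were tested, with a median change of 2.63, and 29 were called higher and 0 lower (limma, with 1 lower at an unadjusted p below 0.05). On chromosome 18 outside the blocks 24 of 29 were higher: 14 of 14 at VIT_18s0075g, 8 of 12 at VIT_18s0001g and 2 of 3 at VIT_18s0122g, while 5 of 5 on unplaced sequence were higher. On other chromosomes 0 of 18 were called (limma, with 1 lower and 0 higher at an unadjusted p below 0.05), with a median change of -0.66 and a range from -1.46 (LAC6) to 0.64 (LAC22). Of these 52 laccases, 5 were above background on at most 1 CTRL array, so their changes are not exact and were not ranked against those of LAC38 and LAC39. Of these LAC22 was not called. LAC37, LAC44, LAC54 and VIT_18s0001g01290, the locus next to LAC25 in number, were called higher and passed the detection filter through their OX.NAC61 arrays. The signals of VIT_18s0001g01290 were 20.6, 2.91 and 2.57 in CTRL, where only the first was above background, and 628, 389 and 574 in OX.NAC61. On the scaled processed signal LAC73 (0.85) and VIT_18s0164g00080 (1.53) lay between the called laccases and those of other chromosomes. So did the uncalled LAC68 (0.82, SE 0.77), LAC64 (1.56, SE 1.74) and LAC66 (2.05, SE 1.56) of VIT_18s0001g, but not the uncalled MCO-Like18 (-0.16) and LAC60 (-0.82). The groups overlapped in LAC68, LAC64 and LAC66 and their 95% intervals included 0, so their place was not resolved. LAC64 and LAC66 were below background on CTRL replicate 3. The changes of LAC73 and VIT_18s0164g00080 were 0.31 and 0.28 in the deposited log2 values and -0.60 and -0.97 under normexp. No test between these places was made.

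**Figure D5:**
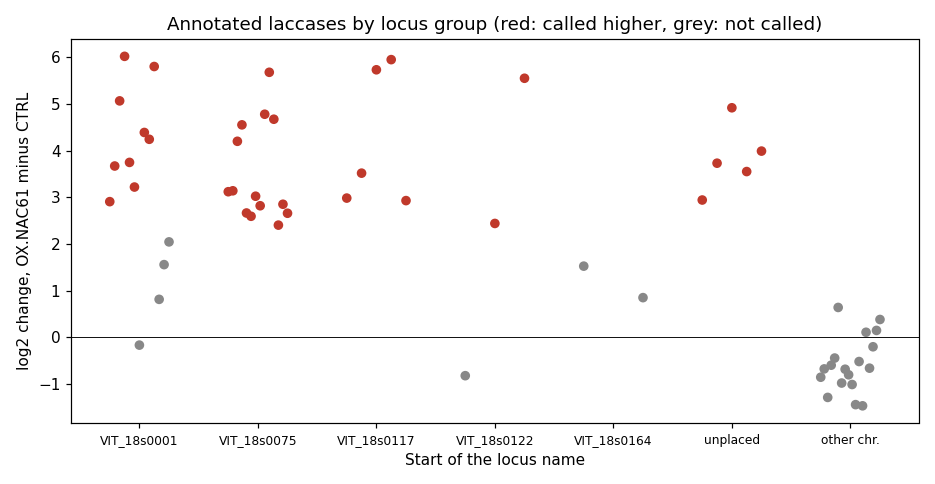
Change in level (log2, OX.NAC61 minus CTRL, y axis) of every tested annotated laccase, grouped by the start of its locus name (x axis), red where called higher and grey where not called, with changes of laccases below background on some CTRL arrays not exact. The 5 points of VIT_18s0117g are all red, the 2 of VIT_18s0164g are grey, and the 18 on other chromosomes are grey and lie mostly below 0.

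Genes that work beside laccases in the pathway were counted in the same fit. Across the array 3.09% of features tested were called higher. Of 9 dirigent protein genes, which guide the coupling of phenolic radicals, 1 was higher, DIR16 (change 3.13, limma adjusted p = 0.0284), and 0 were lower. At an unadjusted limma p below 0.05, 3 dirigent genes were higher and 0 lower. Of 7 genes for steps of monolignol synthesis, 2 were higher: the O-methyltransferase gene COMT5 (change 2.44, limma adjusted p = 0.0359) and the cinnamoyl-CoA reductase gene CCR8 (change 1.29, limma adjusted p = 0.0954). At an unadjusted limma p below 0.05, 3 monolignol genes were higher and 0 lower. The median changes were 0.64 for the dirigent and 0.26 for the monolignol genes. F5H2, a ferulate 5-hydroxylase gene, had a change of 0.06 (limma adjusted p = 0.896).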

How the data were processed

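Processed intensity per spot was deposited by the authors as Agilent Feature Extraction 10.5.1.1 output (background subtracted, 1 colour, not normalised between arrays), together with a table of log2 values for 26157 probes, normalised between arrays by the authors, which was used as an alternative and held 50 of the 68 members. The deposited detection flags (a feature well above background) were used as given. Control spots and outlier-flagged spots were left out, and log2 processed signal was scaled to the 75th percentile of each array. Each feature had 1 probe. A two-sided limma 3.58.1 fit without covariates (R 4.3.3, moderated by eBayes) covered the 27052 features detected on 3 or more arrays, with 1843 called (6.81%) at Benjamini-Hochberg adjusted p below 0.1 and fold above 1.5, the thresholds of the study's methods. The script was tested on simulated data. Columns of the study's own fold changes and p-values were not used. Named genes are LAC25, the annotated laccases and other called members, and further loci where stated. Loci are ordered by locus number, with no coordinates used. Members and gene lists were chosen with earlier results of these data known. Replicates are different plants, per the study's methods, and their number limits the precision. Alternatives changed background correction, normalisation, filter, source of values, blocks (scan day, slide, replicate number), variance trend and threshold, or left out each array.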

Additional observations from a re-analysis of the deposited data

Results flagged for a closer look

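A signal above background appeared in members that no comparison used, because too few arrays detected them. In each case it was seen in OX.NAC61 alone. VIT_18s0117g00020 was detected on 2 OX.NAC61 arrays, and VIT_18s0117g00280, VIT_18s0117g00400 and VIT_18s0117g00460 on 1 OX.NAC61 array each. Their processed signals over all arrays lay between 2.36 and 22.2, and the highest control signal among them was 12.8. The OX.NAC61 arrays were also the brighter arrays, and the part of brightness in these detections was not tested.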

How the results depend on the processing

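The 6 higher calls were kept under quantile normalisation, no filter, detection on all 6 arrays, the deposited log2 values, the replicate block, an intensity trend, an adjusted p threshold of 0.05, and without each array other than CTRL replicate 2. With scan day as a block 1 member was higher and 0 lower (13 features called on the whole array). Normexp background correction with an offset of 50 gave 0 and 0 (limma, with 0 features called on the whole array and 3280 at an unadjusted p below 0.05, among them 8 members). With the local backgrounds above 1000 set to the array median, a setting chosen after seeing the data, it gave 6 and 3 (5742 features called on the whole array). The cause was not tested. Leaving out single arrays gave 3 to 8 members higher and 0 to 3 lower. The features called on the whole array then ranged from 71 (without CTRL replicate 2) to 3224 (without OX.NAC61 replicate 1). The lower count was 3 with no filter, where 2 of the calls were dark loci (1339 features called on the whole array). It was 0 with slide as a block, where 9 members were higher (589 features called on the whole array). The further 3 higher members with the slide block were VIT_18s0164g00080, VIT_18s0164g00110 and VIT_18s0164g00170. CTRL replicate 1 was alone on its recorded slide, so the slide block takes it out of the comparison and is close to leaving that array out. The slide block also rests on a slide record in which OX.NAC61 replicates 1 and 3 share a slide although they were scanned on different days.

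LAC25 changed by 1.94 under normexp (limma adjusted p = 0.257), by 4.87 with scan day as a block (0.109) and by 3.94 to 4.68 without single arrays, where adjusted p reached 0.103 without CTRL replicate 2. LAC73 reversed to -0.60 under normexp and -0.31 with scan day, and VIT_18s0164g00080 to -0.97 under normexp (0.06 with the replaced backgrounds, 0.28 in the deposited values). In the deposited values changes of the called laccases were smaller, 4.15 for LAC38, 3.96 for LAC39, 2.50 for LAC40, 2.34 for LAC41 and 1.69 for LAC46, each still called. Deviations of same-numbered arrays from their group means correlated at 0.21, -0.04 and 0.21 over the features that passed the filter. The highest correlations with another number were 0.26, 0.29 and 0.02. With 3 arrays per group these values do not settle whether the numbers pair arrays. The replicate block gave 6 higher and 1 lower and a LAC25 change of 4.25 (limma adjusted p = 0.0322), with 1020 features called in place of 1843 on the whole array.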
